A study of Mus musculus with 9 samples.

Results

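Endothelial cells line blood and lymph vessels, and 10 genes that mark them were followed in RNA from mouse small intestine: Pecam1, Cdh5, Kdr, Flt1, Tek, Plvap, Vwf, Sox17, Lyve1 and Prox1. They were taken by name from a table of 48708 genes, and all 10 were found and had enough reads to be tested. The study sequenced total RNA of small intestine from C57BL/6 mice of postnatal week 8 with acute graft-versus-host disease, an attack of donor immune cells on the recipient's tissues. There were 9 libraries in 3 groups of 3, all with the disease: wild type (WT), Ripk3-KO, which carries RIPK3-/-, and VilCre-Ripk3fl/fl, which carries floxed Ripk3 alleles and Villin-cre. Villin-cre is a transgene whose promoter is active in intestinal epithelium. The Ripk3 kinase triggers necroptosis, a lytic form of regulated cell death. The labels do not say whether a genotype also held for the transplanted cells, and no group without the disease was analysed here. They also do not say that libraries of a group came from separate animals, so the p-values speak only of the spread among libraries, part or all of which may be technical.

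The 10 genes cover the main tasks of a vessel wall. Vascular endothelial growth factor (VEGF) binds the receptors encoded by Kdr and Flt1 and drives vessel growth, while angiopoietins bind the receptor encoded by Tek and steady existing vessels. Pecam1 and Cdh5 encode adhesion proteins of the junctions between endothelial cells, Plvap the protein of the diaphragms that span the fenestrae of gut capillaries, and Vwf the clotting protein von Willebrand factor. Sox17 encodes a transcription factor of arterial endothelium, Prox1 the transcription factor that sets lymphatic identity, and Lyve1 a hyaluronan receptor of lymphatic capillaries.

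Promoter windows were read from RefSeq (GRCm38.p6, the assembly behind mm10) for 4 of the 10 members, Flt1, Tek, Kdr and Prox1. The windows of Flt1, Tek and Kdr are shown because these receptor genes were higher in both deletions. Each runs from 250 bases before to 50 bases after the annotated start, in the direction of the gene. Capitals mark matches on either strand to AGGAAG, a core of ETS factors, to ACAAT, a core of SOX factors, and to AGATAA, a core of GATA factors; matches to these letters do not overlap here.
Flt1, minus strand, chr5:147725962-147726261: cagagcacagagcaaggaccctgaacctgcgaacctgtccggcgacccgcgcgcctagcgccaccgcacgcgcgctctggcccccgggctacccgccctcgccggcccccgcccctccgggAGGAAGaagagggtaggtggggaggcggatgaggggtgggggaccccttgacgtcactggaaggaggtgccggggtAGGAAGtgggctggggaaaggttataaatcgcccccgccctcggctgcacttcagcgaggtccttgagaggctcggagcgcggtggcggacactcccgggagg
Tek, plus strand, chr4:94739039-94739338: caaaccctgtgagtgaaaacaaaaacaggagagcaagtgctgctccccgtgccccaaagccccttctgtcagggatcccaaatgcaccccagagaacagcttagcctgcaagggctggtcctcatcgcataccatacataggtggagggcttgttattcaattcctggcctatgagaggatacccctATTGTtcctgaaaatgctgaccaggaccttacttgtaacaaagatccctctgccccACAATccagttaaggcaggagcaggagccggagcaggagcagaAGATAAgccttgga
Kdr, minus strand, chr5:75978406-75978705: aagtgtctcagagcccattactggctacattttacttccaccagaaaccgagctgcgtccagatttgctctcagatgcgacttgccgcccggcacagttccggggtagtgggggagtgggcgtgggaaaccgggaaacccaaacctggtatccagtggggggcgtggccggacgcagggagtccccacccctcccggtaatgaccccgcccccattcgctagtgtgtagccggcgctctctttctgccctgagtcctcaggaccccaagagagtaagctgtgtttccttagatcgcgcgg
The Flt1 window held AGGAAG at 2 places, starting at -129 and -53 from the start. The Tek window held the SOX letters at -63 (as ATTGT, on the other strand) and at -7, and AGATAA at 37. None of the 3 motifs was found in the Kdr window or in the 2 windows of Prox1. Such matches are common: of 32851 RefSeq promoter windows, 35.35% held AGGAAG, 31.02% ACAAT and 11.18% AGATAA.

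Total counts ran from 25375499 to 41038990 per library, and the mitochondrial share lay between 4.58 and 4.72% in WT, between 5.02 and 5.86% in VilCre-Ripk3fl/fl and between 5.87 and 6.15% in Ripk3-KO. Ripk3 itself averaged 113 ± 0.974 CPM (counts scaled to library size and TMM factor; SD, n = 3) in WT, 6.45 ± 0.911 in VilCre-Ripk3fl/fl and 3.61 ± 0.242 in Ripk3-KO, which fits the labels. Other tissues differed between the groups. The summed level of 11 pancreas acinar genes was between 1798 and 1817 CPM in WT, between 13163 and 14190 in VilCre-Ripk3fl/fl and between 63.6 and 72.2 in Ripk3-KO, and that of 11 adipocyte genes, in the same order, between 224 and 236, 361 and 368, and 5443 and 5645. Of 6 erythroid genes tested, 5 were higher in Ripk3-KO, where 27.3% of all genes were higher. With Villin-cre 2 were higher (1 higher and 1 lower without a scaling factor), beside 27.2% of all genes. That count does not set blood genes apart with Villin-cre. The sum over the erythroid list was between 377 and 385 CPM in WT and between 398 and 468 with Villin-cre. For Ripk3-KO it was between 621 and 693. Epithelial genes went both ways. Of 8 tested, 2 were higher and 5 lower in Ripk3-KO, beside 27.3% and 28.1% of all genes. With Villin-cre 4 were higher and 3 lower (0 higher and 4 lower without a scaling factor), beside 27.2% and 28.4%. Xist, an RNA of female cells, averaged 276 CPM in Ripk3-KO against 8.46 in WT and 7.49 in VilCre-Ripk3fl/fl, and the Y-linked Ddx3y 0.476 against 39.8 and 38.1, so sex and the Ripk3-KO genotype cannot be told apart. Whether pancreas, fat, blood, epithelium or sex had a part in the results below was not tested. Computing the TMM factors without the pancreas, adipocyte, erythroid and sex chromosome genes left every member on the same side of the threshold. That changes the scaling only, so it cannot show whether these tissues or sex had a part. In tissue RNA, more endothelial cells and more RNA per cell cannot be told apart.

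Per gene length, Plvap was by far the most abundant member. In WT its TPM, the length-scaled value that the authors deposited, was 70.0, 68.7 and 62.7, against 12.0, 12.6 and 12.9 for Pecam1, the next. The order of mean TPM went on with Lyve1 at 10.9 ± 0.315, Cdh5 at 6.54 ± 0.788, Kdr at 5.49 ± 0.287, Flt1 at 3.85 ± 0.412, Vwf at 3.53 ± 0.287, Tek at 2.25 ± 0.206, Sox17 at 0.656 ± 0.0422 and Prox1 at 0.388 ± 0.0850 (SD, n = 3). Flt1 and Vwf were the only neighbours in that order whose WT libraries overlapped. Ripk3-KO had the same order, and in VilCre-Ripk3fl/fl Tek came just before Vwf with overlapping libraries (3.16 ± 0.734 against 3.11 ± 0.284). Lyve1, Cdh5 and Kdr, which were apart in WT, followed each other with overlapping libraries in VilCre-Ripk3fl/fl at 6.99 ± 1.56, 6.62 ± 0.505 and 6.02 ± 1.01 TPM. The 2 least abundant members, Sox17 and Prox1, had the fewest reads and the widest error.

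**Figure D1:**
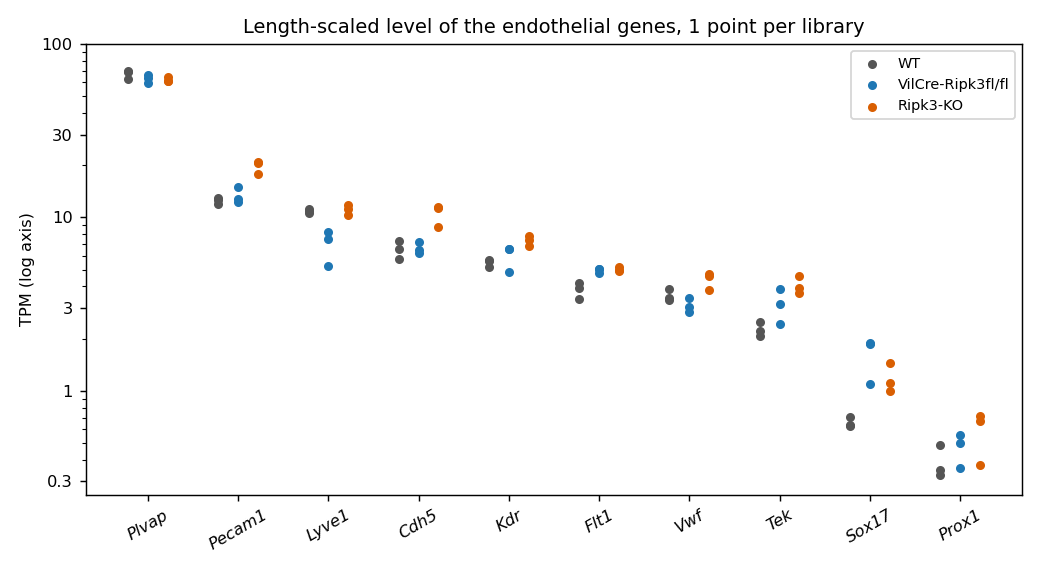
TPM of the 10 endothelial genes on a log axis, with 1 point per library, coloured by group. Plvap lies between 59.6 and 70.0 in all 9 libraries and Prox1 between 0.328 and 0.716.

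In Ripk3-KO against WT, 7 of the 10 members were higher, none was lower and 3 did not pass the test (edgeR's quasi-likelihood test, Benjamini-Hochberg adjusted p under 0.05). Over all 16539 genes tested, 27.3% were higher and 28.1% lower in this comparison. The members that rose were Tek, Sox17, Cdh5, Pecam1, Kdr, Flt1 and Vwf, by 1.29-fold to 1.88-fold, and the median log2 fold change was 0.56 over the members and 0.01 over all genes. In VilCre-Ripk3fl/fl against WT, 7 members were higher and 1, Lyve1, was lower, beside 27.2% higher and 28.4% lower over all genes; the medians were 0.39 and 0.02. Both comparisons use the same 3 WT libraries. Between the deletions, 4 members (Pecam1, Cdh5, Vwf and Lyve1) were higher in Ripk3-KO and 1 (Plvap) was lower, where 16.6% of all genes were higher and 15.1% lower. Counted by libraries that did not overlap, 7 members were higher and 0 lower in Ripk3-KO against WT (31.6% and 31.9% of all genes), 7 higher and 1 lower with Villin-cre (30% and 31.4%), and 3 higher and 2 lower between the deletions (21.5% and 19.2%).

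The counts for VilCre-Ripk3fl/fl depend on the scaling. With library size alone and no TMM factor, an alternative chosen after the data were seen, the median log2 fold change of all genes moved to -0.13 in VilCre-Ripk3fl/fl against WT, with 20% of genes higher and 37.9% lower, and 5 members were then higher, with Cdh5 and Plvap lost, and 1 lower. Between the deletions that median moved to 0.14, with 28% of genes higher in Ripk3-KO and 7.86% lower, and 4 members were higher and 0 lower. Without the factor, the libraries of 4 members were all higher and those of 1 all lower in VilCre-Ripk3fl/fl than in WT (22% and 40.7% of all genes), with Cdh5, Kdr and Plvap overlapping. Between the deletions 5 members were then apart upwards and 0 downwards (34.1% and 10.3%). In Ripk3-KO against WT the same 7 members were higher with or without the factor.

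**Figure D2:**
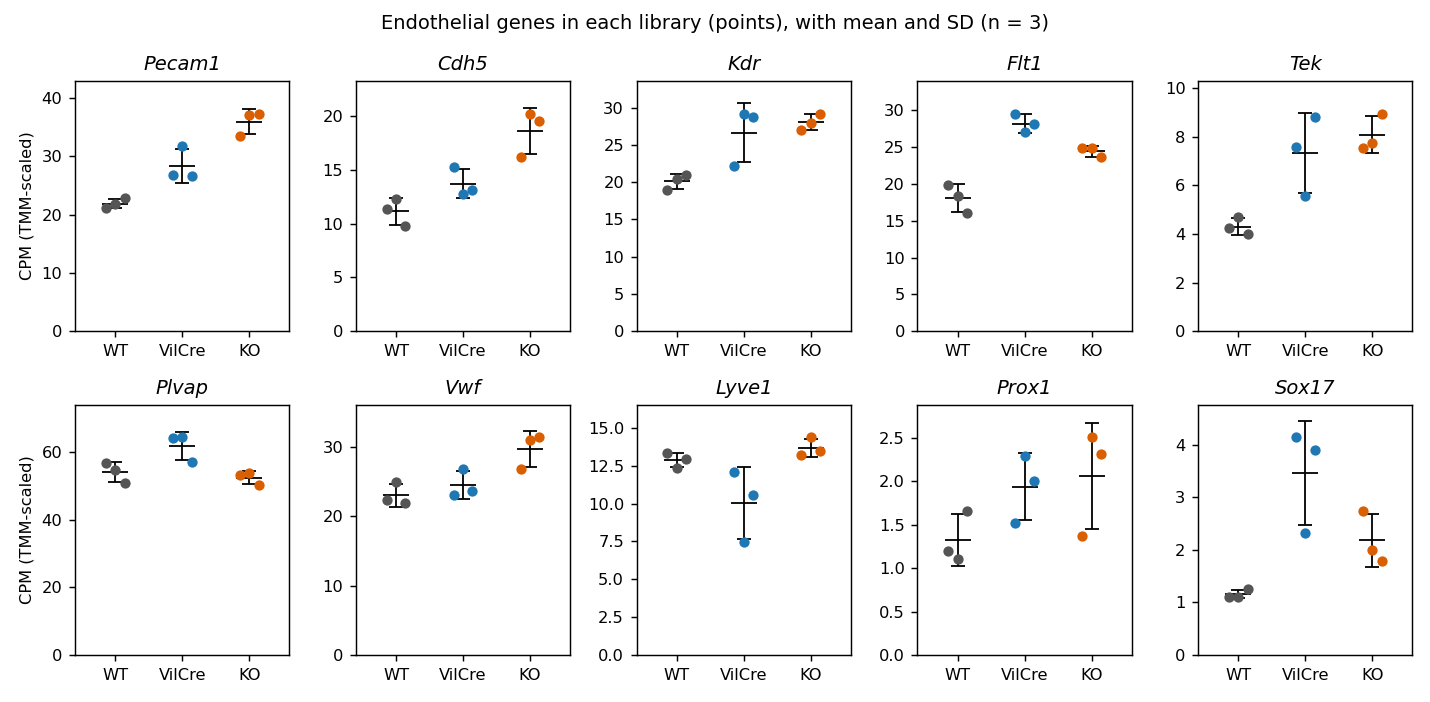
TMM-scaled CPM of each member in each of the 9 libraries (points), with the group mean and SD (n = 3) and each axis starting at 0. Pecam1 is between 21.1 and 22.8 in WT and between 33.5 and 37.3 in Ripk3-KO, and Sox17 is at or below 1.25 in WT and at or above 1.79 elsewhere.

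Among the VEGF receptors, Kdr (chr5:75932827-75978458, minus strand, mm10), which encodes VEGFR2, the main signalling receptor of blood endothelium, was at 19.0, 20.4 and 21.0 CPM in WT, 22.1, 29.2 and 28.7 in VilCre-Ripk3fl/fl and 27.1, 28.0 and 29.2 in Ripk3-KO. Every deletion library was above every WT library, and VilCre-Ripk3fl/fl replicate 1 was the closest to WT. That library was within the WT range without a scaling factor (20.6 CPM, against 19.6 to 21.8) and below it in deposited TPM (4.85, against 5.16 to 5.69). Kdr was 1.40-fold higher in Ripk3-KO than in WT (log2 0.48 ± 0.09, SE, adjusted p = 8.08e-05) and 1.33-fold higher in VilCre-Ripk3fl/fl (0.41 ± 0.09, adjusted p = 0.000643), and the deletions overlapped. Flt1 (chr5:147561604-147726011, minus strand) encodes VEGFR1, which binds VEGF tightly, signals weakly and also exists as a soluble trap. It was at 19.9, 18.3 and 16.1 CPM in WT, 29.5, 27.0 and 28.1 in VilCre-Ripk3fl/fl and 24.9, 24.9 and 23.6 in Ripk3-KO. The 3 groups did not overlap, with VilCre-Ripk3fl/fl the highest, although without a scaling factor the deletions overlapped (25.4 CPM in VilCre-Ripk3fl/fl replicate 2, 25.6 in Ripk3-KO replicate 2). Flt1 was 1.56-fold higher in VilCre-Ripk3fl/fl than in WT (0.64 ± 0.09, adjusted p = 8.77e-07) and 1.35-fold higher in Ripk3-KO (0.43 ± 0.09, adjusted p = 0.000133). The difference between the deletions missed the threshold (log2 -0.20 ± 0.08 for Ripk3-KO against VilCre-Ripk3fl/fl, adjusted p = 0.0678).

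Around these receptors, 12 genes of VEGF ligands, co-receptors and regulators were tested. In Ripk3-KO 7 were higher and 3 lower, beside 27.3% and 28.1% of all genes. In VilCre-Ripk3fl/fl 6 were higher and 3 lower, beside 27.2% and 28.4%. Vegfa, the ligand of both Kdr and Flt1, averaged 83.3 CPM in WT, 107 in Ripk3-KO (1.28-fold higher, adjusted p = 1.44e-05) and 104 in VilCre-Ripk3fl/fl (1.25-fold higher, adjusted p = 8.04e-05). The co-receptor genes moved the same way: Nrp1 was 1.82-fold and 1.58-fold higher (adjusted p = 1.05e-06 and 6.52e-05) and Nrp2 1.72-fold and 1.55-fold higher (6.57e-09 and 3.96e-07). The lymphatic growth factor gene Vegfd rose 3.55-fold in Ripk3-KO, from 1.33 to 4.74 CPM (adjusted p = 1.29e-06), and averaged 1.51 CPM in VilCre-Ripk3fl/fl. Hif1a, whose product activates Vegfa under low oxygen, went the other way, with 172 CPM in WT, 54.7 in VilCre-Ripk3fl/fl and 81.3 in Ripk3-KO (3.14-fold and 2.11-fold lower, adjusted p = 3.05e-12 and 6.93e-10). Without a scaling factor, 3 members of this list were higher in VilCre-Ripk3fl/fl, with Vegfc, Flt4 and Plxnd1 lost. These ligands and regulators are also expressed outside endothelium.

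Tek (chr4:94739289-94874976, plus strand), which encodes the angiopoietin receptor Tie2, was at 4.24, 4.68 and 3.99 CPM in WT, 7.57, 5.57 and 8.82 in VilCre-Ripk3fl/fl and 7.53, 7.73 and 8.94 in Ripk3-KO. Every deletion library was above WT in CPM, and VilCre-Ripk3fl/fl spread most. In deposited TPM VilCre-Ripk3fl/fl replicate 2 (2.42) was within the WT range of 2.07 to 2.48. Tek was 1.88-fold higher in Ripk3-KO (log2 0.91 ± 0.16, adjusted p = 4.26e-05) and 1.70-fold higher in VilCre-Ripk3fl/fl (0.77 ± 0.17, adjusted p = 0.000404). Of its 7 partners tested, 4 were higher and 1 lower in Ripk3-KO, beside 27.3% and 28.1% of all genes. In VilCre-Ripk3fl/fl 2 were higher and 2 lower, beside 27.2% and 28.4% (0 higher without a scaling factor, with Svep1 and Foxo1 lost). Angpt1, the activating ligand, averaged 0.898 CPM in WT and 2.04 in Ripk3-KO (2.26-fold higher, adjusted p = 0.00820). Angpt2, the ligand that mostly opposes it, averaged 4.67 CPM in WT and was lower in both deletions, at 2.94 in Ripk3-KO (1.59-fold, adjusted p = 0.00557) and 3.26 in VilCre-Ripk3fl/fl (1.43-fold, adjusted p = 0.0301). Svep1, which encodes an extracellular protein linked to lymphatic vessels, was 2.28-fold and 1.37-fold higher (adjusted p = 3.18e-07 and 0.0167), the latter lost without a scaling factor (adjusted p = 0.0937).

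Of the junction genes, Pecam1 (chr11:106654217-106750628, minus strand) was at 21.1, 21.8 and 22.8 CPM in WT, 26.8, 31.8 and 26.6 in VilCre-Ripk3fl/fl and 33.5, 37.0 and 37.3 in Ripk3-KO. The groups stood in that order with no overlap in CPM. In deposited TPM WT and VilCre-Ripk3fl/fl overlapped, at 12.0, 12.6 and 12.9 against 12.3, 15.1 and 12.8. Pecam1 was 1.64-fold higher in Ripk3-KO than in WT (log2 0.72 ± 0.08, adjusted p = 3.79e-08), 1.30-fold higher in VilCre-Ripk3fl/fl than in WT (0.37 ± 0.08, adjusted p = 0.000463) and 1.27-fold higher in Ripk3-KO than in VilCre-Ripk3fl/fl (0.34 ± 0.08, adjusted p = 0.00168). Cdh5 (chr8:104101625-104144511, plus strand), which encodes VE-cadherin, was at 11.3, 12.3 and 9.81 CPM in WT, 15.2, 12.7 and 13.2 in VilCre-Ripk3fl/fl and 16.2, 20.2 and 19.5 in Ripk3-KO. It showed the same order in CPM, with VilCre-Ripk3fl/fl replicate 2 just above the highest WT library. Without a scaling factor VilCre-Ripk3fl/fl replicate 2 was within the WT range (12.0 CPM, against 10.2 to 12.8). In deposited TPM the VilCre-Ripk3fl/fl libraries were at 7.18, 6.19 and 6.49, within the WT range of 5.72 to 7.29. Cdh5 was 1.67-fold higher in Ripk3-KO than in WT (0.74 ± 0.11, adjusted p = 4.70e-06) and 1.36-fold higher than in VilCre-Ripk3fl/fl (0.44 ± 0.11, adjusted p = 0.00344). Its 1.23-fold rise in VilCre-Ripk3fl/fl against WT (adjusted p = 0.0354) was lost on leaving out VilCre-Ripk3fl/fl replicate 1 (0.156), WT replicate 3 (0.183) or WT replicate 1 (0.0680), with limma-voom (0.0656) and without a scaling factor (0.280). Pecam1 is also made by platelets and leukocytes; of 7 platelet genes tested, 1 was higher and 2 lower in Ripk3-KO and 1 was lower in VilCre-Ripk3fl/fl, and of 7 leukocyte genes, 5 and 6 were lower and 0 higher. Of 13 macrophage genes, 8 were higher and 1 lower in Ripk3-KO, and 2 were higher and 9 lower in VilCre-Ripk3fl/fl. The part of these cells in Pecam1 was not tested.

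Of 20 other pan-endothelial genes, 14 were higher and 1 lower in Ripk3-KO, beside 27.3% and 28.1% of all genes. In VilCre-Ripk3fl/fl 8 were higher and 1 lower, beside 27.2% and 28.4% (6 higher without a scaling factor, with Esam and Robo4 lost). Nos3, which encodes endothelial nitric oxide synthase, was at 2.46, 1.92 and 1.98 CPM in WT, 3.00, 2.86 and 2.15 in VilCre-Ripk3fl/fl and 6.67, 9.32 and 6.84 in Ripk3-KO. All 3 Ripk3-KO libraries were above all others, 3.58-fold over WT (adjusted p = 2.10e-08) and 2.85-fold over VilCre-Ripk3fl/fl (adjusted p = 1.25e-06). Mmrn2, a matrix protein gene of vessel walls, was 1.96-fold and 1.45-fold higher than WT in the Ripk3-KO and VilCre-Ripk3fl/fl groups (adjusted p = 7.40e-08 and 0.000433). Icam2 and the sialomucin gene Emcn had the smallest p among the higher genes in VilCre-Ripk3fl/fl, at 2.63-fold and 1.55-fold (adjusted p = 5.95e-05 and 8.41e-05), while Cldn5, a tight junction gene, was 2.20-fold higher (adjusted p = 0.000693). Ecscr, which encodes an endothelial surface protein, was the exception: its WT mean of 14.9 CPM fell to 6.52 with Villin-cre and 7.17 in Ripk3-KO (2.28-fold and 2.07-fold lower, adjusted p = 1.08e-08 and 4.22e-08).

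**Figure D3:**
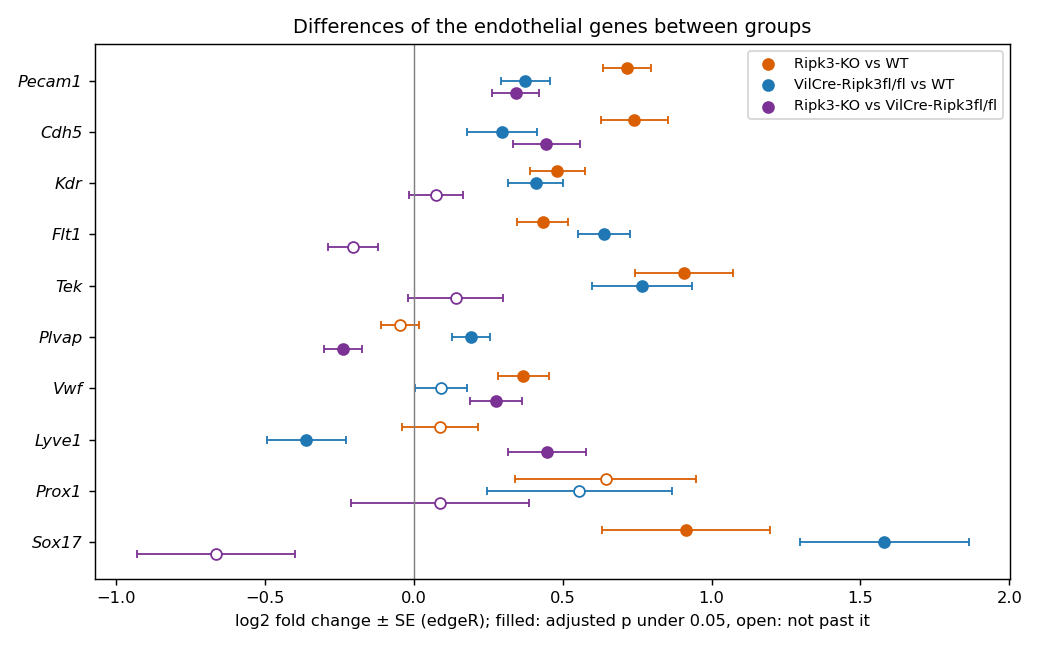
Log2 fold change (horizontal axis) with its SE for each member in the 3 comparisons, from edgeR; filled points passed an adjusted p of 0.05 and open points did not. Sox17 in VilCre-Ripk3fl/fl against WT is the highest point at 1.58, and Lyve1 in the same comparison is at -0.36.

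Plvap (chr8:71497765-71511752, minus strand) did not rise in Ripk3-KO. It was at 56.7, 54.8 and 50.9 CPM in WT, 64.2, 64.3 and 57.1 in VilCre-Ripk3fl/fl and 53.3, 53.8 and 50.2 in Ripk3-KO. WT and Ripk3-KO overlapped (log2 -0.05 ± 0.06, adjusted p = 0.552), a value that turned to 0.012 with upper-quartile scaling. The VilCre-Ripk3fl/fl libraries were 1.14-fold above WT (0.19 ± 0.06, adjusted p = 0.0134) and 1.18-fold above Ripk3-KO (adjusted p = 0.00499). Against WT the call was lost without WT replicate 3 (adjusted p = 0.100) or VilCre-Ripk3fl/fl replicate 2 (0.0625). Both calls were lost without a scaling factor (log2 0.049 and adjusted p = 0.525 against WT, and 0.166 against Ripk3-KO), and in deposited TPM the WT libraries lay between 62.7 and 70.0 and those of VilCre-Ripk3fl/fl between 59.6 and 66.2. Plvap overlaps Gtpbp3 on the opposite strand by 1819 bases, with 15981 and 4228 reads over all libraries, and whether counting used strand is not stated.

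All 5 caveola genes tested were higher in Ripk3-KO, and 3 of the 5 in VilCre-Ripk3fl/fl, where 1 was lower without a scaling factor. Cav1, the main caveolar coat protein gene, was at 21.9, 18.7 and 20.2 CPM in WT, 34.9, 38.2 and 43.0 in VilCre-Ripk3fl/fl and 121, 114 and 120.0 in Ripk3-KO. Its groups were well apart, at 5.83-fold and 1.91-fold over WT (adjusted p = 4.62e-20 and 1.14e-10). Ptrf, now named Cavin1, was 4.01-fold and 1.97-fold higher (adjusted p = 4.47e-20 and 2.87e-13) and Sdpr, now Cavin2, 5.48-fold and 2.40-fold higher (8.76e-18 and 2.25e-11). Caveola genes are also abundant in fat and smooth muscle: the 10 smooth muscle genes summed to between 1482 and 1544 CPM in WT, between 3022 and 3198 in VilCre-Ripk3fl/fl and between 3483 and 3884 in Ripk3-KO, and the part of these tissues, and of the fat genes given above, was not tested.

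Vwf (chr6:125546774-125686679, plus strand) was at 22.3, 24.9 and 21.9 CPM in WT, 23.1, 26.8 and 23.7 in VilCre-Ripk3fl/fl and 26.8, 31.0 and 31.4 in Ripk3-KO. WT and VilCre-Ripk3fl/fl overlapped (log2 0.09 ± 0.09, adjusted p = 0.394; -0.051 without a scaling factor), and every Ripk3-KO library was above WT. In deposited TPM Ripk3-KO replicate 1 (3.82) was below WT replicate 2 (3.86). Vwf was 1.29-fold higher in Ripk3-KO than in WT (0.37 ± 0.09, adjusted p = 0.000742). Against VilCre-Ripk3fl/fl it was 1.21-fold higher (adjusted p = 0.0156), although 1 library of each overlapped, and the call was lost on leaving out Ripk3-KO replicate 2 (0.0698) or 3 (0.0833) or VilCre-Ripk3fl/fl replicate 1 (0.0728) or 3 (0.0588). Of 8 haemostasis genes of endothelium, 4 were higher and 2 lower in Ripk3-KO, beside 27.3% and 28.1% of all genes. In VilCre-Ripk3fl/fl 3 were higher and 2 lower, beside 27.2% and 28.4% (2 higher without a scaling factor, with Tfpi lost). Thbd, which encodes the anticoagulant thrombomodulin, averaged 8.44 CPM in WT, 19.7 in Ripk3-KO (2.34-fold higher, adjusted p = 2.44e-09) and 14.2 in VilCre-Ripk3fl/fl (1.69-fold higher, adjusted p = 9.79e-06). Plat, which encodes tissue plasminogen activator of clot lysis, was 1.37-fold and 1.91-fold lower in Ripk3-KO and VilCre-Ripk3fl/fl (adjusted p = 0.00167 and 4.22e-07).

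Sox17 (chr1:4490931-4497354, minus strand) had its highest mean in VilCre-Ripk3fl/fl. It was at 1.11, 1.11 and 1.25 CPM in WT, 4.14, 2.33 and 3.91 in VilCre-Ripk3fl/fl and 2.74, 2.01 and 1.79 in Ripk3-KO. All deletion libraries were above WT, and the deletions overlapped through VilCre-Ripk3fl/fl replicate 2. Sox17 was 2.99-fold higher in VilCre-Ripk3fl/fl than in WT (log2 1.58 ± 0.28, adjusted p = 4.14e-05) and 1.88-fold higher in Ripk3-KO (0.91 ± 0.28, adjusted p = 0.00817), the latter lost without Ripk3-KO replicate 1 (0.0581). The deletions were not called different (log2 -0.67 ± 0.27, adjusted p = 0.0587), but were on leaving out Ripk3-KO replicate 1 (0.0306) or VilCre-Ripk3fl/fl replicate 2 (0.0153). Of 14 other arterial genes, 2 were higher and 4 lower in Ripk3-KO, beside 27.3% and 28.1% of all genes. In VilCre-Ripk3fl/fl 4 were higher and 2 lower, beside 27.2% and 28.4% (3 and 3 without a scaling factor). These counts are near or below those shares and do not set arterial genes apart. Bmx, which encodes a kinase of arterial endothelium, was at 0.511, 0.618 and 0.416 CPM in WT, 1.99, 2.90 and 3.33 in VilCre-Ripk3fl/fl and 2.99, 2.80 and 2.93 in Ripk3-KO, 5.29-fold and 5.59-fold over WT (adjusted p = 2.65e-07 and 1.10e-07). The Notch pathway gene Notch4 and the ephrin gene Efnb2 were lower, Notch4 by 1.29-fold and 1.53-fold (adjusted p = 0.00892 and 6.19e-05) and Efnb2 by 1.25-fold and 1.50-fold (6.65e-05 and 4.48e-09), in VilCre-Ripk3fl/fl and Ripk3-KO.

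Of 9 capillary and tip cell genes, 6 were higher in Ripk3-KO, 3 were higher in VilCre-Ripk3fl/fl and none was lower. Cd36, a fatty acid transporter gene also used by enterocytes and fat cells, averaged 14.9 CPM in WT, 190 in Ripk3-KO (12.8-fold higher, adjusted p = 2.01e-25) and 40.9 in VilCre-Ripk3fl/fl (2.76-fold, adjusted p = 1.88e-16). Rgcc, a cell cycle regulator gene of capillary endothelium, was at 3.48, 5.20 and 3.02 CPM in WT, 4.57, 2.90 and 2.69 in VilCre-Ripk3fl/fl and 13.5, 14.1 and 12.0 in Ripk3-KO. All 3 Ripk3-KO libraries were above the others, 3.38-fold over WT (adjusted p = 4.50e-08) and 3.92-fold over VilCre-Ripk3fl/fl (adjusted p = 3.18e-08). Of 5 venous genes, 1 was higher and 1 lower in Ripk3-KO, and 1 was higher and 2 lower in VilCre-Ripk3fl/fl. Ephb4, the higher one there, was lost without a scaling factor. Beside the shares over all genes given above, such counts over 5 genes do not set venous genes apart. The chemokine-binding receptor gene Ackr1 was 2.94-fold higher in Ripk3-KO (adjusted p = 0.000242). Lrg1, a secreted glycoprotein gene that is also made by epithelium and neutrophils, was 2.91-fold and 5.28-fold lower (adjusted p = 1.26e-10 and 1.58e-13).

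Adhesion molecules through which endothelium holds leukocytes went both ways. Of 8 tested, 4 were higher and 3 lower in Ripk3-KO (1 lower with upper-quartile scaling), beside 27.3% and 28.1% of all genes. In VilCre-Ripk3fl/fl 4 were higher and 4 lower, beside 27.2% and 28.4%. There 3 were lower with upper-quartile scaling, and 3 higher without a factor. Icam1, which inflammation induces on endothelium and epithelium alike, was at 46.4, 44.3 and 46.5 CPM in WT, 7.10, 9.27 and 6.53 in VilCre-Ripk3fl/fl and 14.8, 13.5 and 14.8 in Ripk3-KO. The groups were far apart, 5.99-fold and 3.18-fold below WT (adjusted p = 9.67e-17 and 8.04e-14). Vcam1, another inducible gene, was 1.73-fold lower in VilCre-Ripk3fl/fl (adjusted p = 2.29e-05) and 1.23-fold lower in Ripk3-KO (adjusted p = 0.0480), the latter lost with upper-quartile scaling (0.112), as was Madcam1, the gut homing receptor gene (0.0457 to 0.0647). Cd34 and Jam2, which resting endothelium also carries, were higher: Cd34 by 2.27-fold and 1.43-fold (adjusted p = 6.42e-10 and 0.000334) and Jam2 by 2.67-fold and 1.83-fold (9.54e-07 and 0.000493) in Ripk3-KO and VilCre-Ripk3fl/fl.

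Neither lymphatic member passed the test in Ripk3-KO against WT. Lyve1 (chr7:110850607-110863239, minus strand) was at 13.3, 12.4 and 12.9 CPM in WT, 12.1, 7.47 and 10.6 in VilCre-Ripk3fl/fl and 13.2, 14.4 and 13.5 in Ripk3-KO. WT and Ripk3-KO overlapped (log2 0.09 ± 0.13, adjusted p = 0.585), while each VilCre-Ripk3fl/fl library was below both. Lyve1 was 1.28-fold lower in VilCre-Ripk3fl/fl than in WT (-0.36 ± 0.13, adjusted p = 0.0233), a call lost on leaving out VilCre-Ripk3fl/fl replicate 2 (0.202), WT replicate 3 (0.0518) or WT replicate 1 (0.0704), and 1.36-fold higher in Ripk3-KO than in VilCre-Ripk3fl/fl (adjusted p = 0.00997), lost without VilCre-Ripk3fl/fl replicate 2 (0.0961). Some tissue macrophages also make Lyve1. The 13 macrophage genes counted above had a summed level between 475 and 488 CPM in WT, between 314 and 337 in VilCre-Ripk3fl/fl and between 512 and 543 in Ripk3-KO, and their part in Lyve1 was not tested. Prox1 (chr1:190118035-190170714, minus strand) was at 1.20, 1.11 and 1.66 CPM in WT, 1.52, 2.29 and 2.01 in VilCre-Ripk3fl/fl and 1.37, 2.51 and 2.31 in Ripk3-KO, and its groups overlapped. It did not pass in Ripk3-KO (log2 0.64 ± 0.30, adjusted p = 0.0760) or in VilCre-Ripk3fl/fl (0.56 ± 0.31, adjusted p = 0.135) against WT, although it did in Ripk3-KO without WT replicate 3 (0.0499) or Ripk3-KO replicate 1 (0.0239). Enteroendocrine cells also use Prox1. Among 10 of their genes, 6 were higher in VilCre-Ripk3fl/fl and 2 in Ripk3-KO, beside 27.2% and 27.3% of all genes. None was lower, beside 28.4% and 28.1%, and the part of these cells was not tested.

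Of 10 further lymphatic genes, 8 were higher and 1 lower in Ripk3-KO (0 lower with upper-quartile scaling), beside 27.3% and 28.1% of all genes. In VilCre-Ripk3fl/fl 5 were higher and 1 lower, beside 27.2% and 28.4% (3 higher without a scaling factor, with Flt4 and Gja1 lost). Ccl21a, the chemokine gene by which lymphatics draw in dendritic cells, was at 9.70, 9.50 and 6.72 CPM in WT, 18.1, 15.8 and 15.0 in VilCre-Ripk3fl/fl and 14.6, 16.2 and 12.7 in Ripk3-KO. All deletion libraries were above WT, by 1.88-fold in VilCre-Ripk3fl/fl (adjusted p = 2.91e-06) and 1.67-fold in Ripk3-KO (adjusted p = 3.53e-05). Mmrn1, a multimerin gene of lymphatic endothelium, was 1.65-fold and 1.43-fold higher in Ripk3-KO and VilCre-Ripk3fl/fl (adjusted p = 1.39e-05 and 0.000924). Flt4, which encodes the lymphatic VEGF receptor VEGFR3, was 1.34-fold and 1.40-fold higher (adjusted p = 0.0377 and 0.0196). Its Ripk3-KO and WT libraries overlapped, with Ripk3-KO replicate 1 at 4.90 CPM, within the WT range of 4.69 to 5.33. Pdpn, the podoplanin gene, which stromal cells also express, was 1.40-fold lower in VilCre-Ripk3fl/fl (adjusted p = 0.00529) and 1.25-fold higher in Ripk3-KO (adjusted p = 0.0450), the latter lost without a scaling factor (0.0587).

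**Figure D4:**
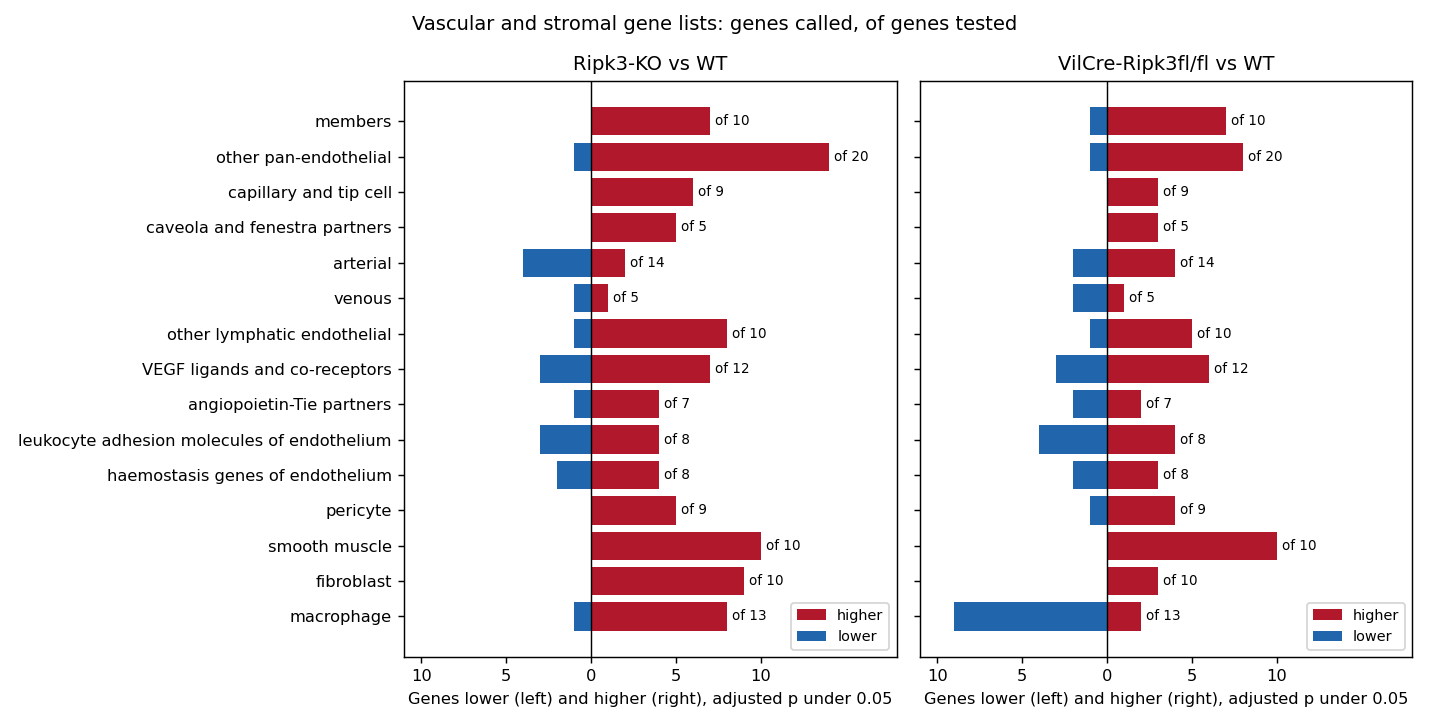
Number of genes higher (to the right) and lower (to the left) than WT at an adjusted p under 0.05 in each list, with the number tested beside each bar. Of the members 7 are to the right in each panel, and Lyve1 is to the left with Villin-cre. Many lists have genes on both sides in each panel, among them the VEGF, angiopoietin, haemostasis, lymphatic, arterial, venous and leukocyte adhesion lists.

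Members were also set against the rest of the endothelial transcripts, by using the summed counts of the 20 other pan-endothelial genes in place of library size. That sum was between 129 and 135 CPM in WT, between 148 and 156 in VilCre-Ripk3fl/fl and between 169 and 186 in Ripk3-KO. In Ripk3-KO against WT, 3 members were higher than this reference and 2 lower, beside 12% of all genes higher and 54.9% lower. Plvap was at 41.1 ± 1.37 counts per 100 reference counts in WT, 40.8 ± 1.97 in VilCre-Ripk3fl/fl and 29.9 ± 1.39 in Ripk3-KO (SD, n = 3). Ripk3-KO alone was low, 1.38-fold below WT (log2 -0.46 ± 0.08, adjusted p = 5.76e-07) and 1.36-fold below VilCre-Ripk3fl/fl (-0.45 ± 0.08, adjusted p = 3.28e-06), and both held in all 10 alternatives. Tek kept a 1.41-fold rise in Ripk3-KO (adjusted p = 0.00950, lost without Ripk3-KO replicate 3 at 0.0729), Pecam1 a 1.23-fold rise (adjusted p = 0.00393) and Cdh5 a 1.25-fold rise (adjusted p = 0.0133, lost without WT replicate 3 at 0.0887 or Ripk3-KO replicate 3 at 0.0757). Lyve1 was 1.26-fold lower (adjusted p = 0.0219), lost without WT replicate 1 (0.0541), WT replicate 3 (0.0633) or Ripk3-KO replicate 2 (0.0588). Kdr, Flt1 and Vwf, which had risen per library, were within 0.07 log2 of the reference and did not pass, nor did Sox17 (log2 0.50 ± 0.29, adjusted p = 0.124).

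In VilCre-Ripk3fl/fl against WT, 3 members were higher than the reference and 1 lower, beside 16.6% and 40.6% of all genes. Kdr was not among them (log2 0.21 ± 0.10, adjusted p = 0.0885), but was called higher without VilCre-Ripk3fl/fl replicate 1 (0.00504). Sox17 was at 0.879 ± 0.0796 per 100 reference counts in WT and 2.28 ± 0.643 in VilCre-Ripk3fl/fl, 2.59-fold higher (log2 1.37 ± 0.29, adjusted p = 7.60e-05). Flt1 kept a 1.35-fold rise (adjusted p = 0.000148) and Tek a 1.48-fold rise (adjusted p = 0.00500, lost without VilCre-Ripk3fl/fl replicate 3 at 0.0821), and Lyve1 was 1.48-fold lower (adjusted p = 0.000297). Between the deletions no member was higher than the reference in Ripk3-KO and 3 were lower, beside 8.25% and 35.3% of all genes. Those 3 were Plvap, Flt1 (1.33-fold, adjusted p = 0.000342) and Sox17 (1.83-fold, adjusted p = 0.00838, lost without VilCre-Ripk3fl/fl replicate 3 at 0.0515 or Ripk3-KO replicate 2 at 0.0512). Without VilCre-Ripk3fl/fl replicate 1, Kdr was also called lower (0.0262) and Lyve1 higher (0.0324).

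**Figure D5:**
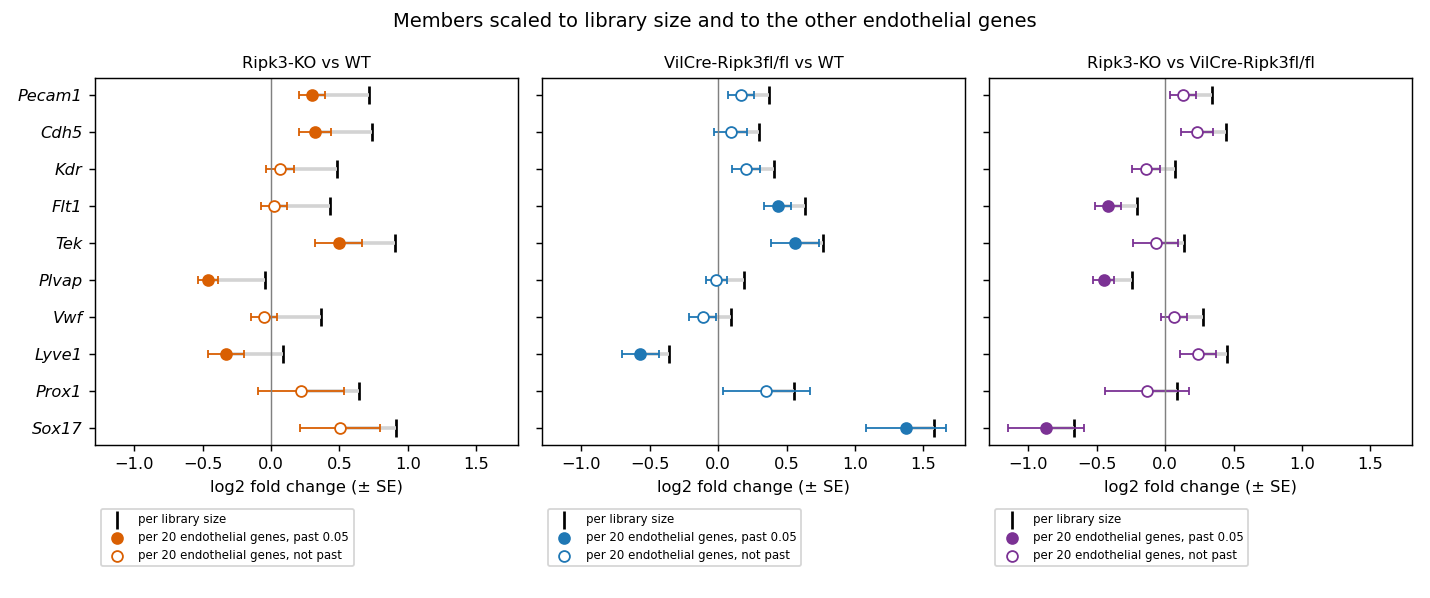
Log2 fold change (horizontal axis) of each member per library size (black ticks) and per 20 other endothelial genes (circles with SE, filled where adjusted p is under 0.05) in the 3 comparisons. The circles lie left of the ticks throughout, and Plvap in Ripk3-KO against WT goes from -0.05 to -0.46.

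Across the 9 libraries, the genes whose log2 CPM was most like the mean of Pecam1 and Cdh5, among 13082 ranked, were Tnxb, Fam102a, Plcb4, Pgm5 and Bmp8b, with Pearson r from 0.987 to 0.994. The points fall in 3 groups, so differences between groups enter into r. After the group means were removed r was 0.763 to 0.937 for these 5 genes, which were picked for the highest r in the same libraries. Tnxb encodes a matrix glycoprotein, Plcb4 a phospholipase C, Pgm5 a protein of muscle adhesion sites and Bmp8b a bone morphogenetic protein. Of the other members, Vwf was the most alike at 0.907, followed by Tek at 0.814 and Kdr at 0.779, with Sox17 at 0.397, Lyve1 at 0.161 and Plvap at -0.144. After the group means were removed, r was 0.795 for Vwf but 0.023 for Tek, -0.045 for Kdr, -0.599 for Sox17, -0.017 for Lyve1 and 0.311 for Plvap.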

How the data were processed

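RNA of small intestine was measured in 9 libraries, grouped from the sample titles. The authors deposited whole-number counts per gene, with RPKM and TPM (both per gene length, whose definition is not given) in the same table. Per the submitters' processing notes Trimmomatic, STAR, HTSeq, DESeq2 and mm10 were used, and their roles and versions, and whether counting used strand, are not given in the sources used here. Of the table, 1 line was not analysed here. TPM and RPKM were used to order members within a group, and both gave the same order. For some members TPM was also used to see whether libraries of different groups overlapped.

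The counts of all 9 libraries went into edgeR 4.0.16 under R 4.3.3 (filterByExpr, TMM factors, robust quasi-likelihood fit, 1 mean per group, 6 residual degrees of freedom, 2-sided, Benjamini-Hochberg over 16539 genes, threshold 0.05). A count of 0 would allow up to 3 counts, 0.0731 to 0.118 CPM per library, for counting error only. The fit was also run on simulated counts with few changed genes, unlike these data, and no support is drawn from that run here. The members and gene lists were chosen with earlier results of these data known, and some genes stand in 2 lists. Text names all members, up to 2 higher and 2 lower genes per list and comparison by smallest p, partners of members, and the 5 genes most alike. The values of 1 gene that this rule names are not reported here. Libraries with the same number deviated from their group means with correlations of -0.054 to 0.143, and 3 of 9 matched best their own number, so numbers were not used as pairs. Alternatives were RLE and upper-quartile scaling, TMM without tissue and sex chromosome genes, no factor, other filters, DESeq2 1.42.0, limma-voom (limma 3.58.1), fits of the 2 groups compared alone, a replicate block, and each library left out.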

Additional observations from a re-analysis of the deposited data

How the results depend on the processing

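Each member was refitted under 19 alternatives in each comparison, and relative values under 10. The fit with the replicate number as a replicate block gave the same counts, 7 higher in each deletion against WT and 4 between them, and changed no call. With no scaling factor 0 members were lower between the deletions. Leaving out each library in turn gave 0 to 1 lower in VilCre-Ripk3fl/fl against WT and 1 to 2 lower between the deletions. For relative values it gave 1 to 3 higher and 1 to 2 lower in Ripk3-KO against WT and 0 to 1 higher between the deletions. Calls of members as higher moved in these fits too. In VilCre-Ripk3fl/fl against WT, Cdh5 and Plvap were both lost without WT replicate 3. Between the deletions Vwf was lost in 4 fits and Lyve1 in 1. In Ripk3-KO against WT, Prox1 was gained in 2 and Sox17 lost in 1. The values that changed sign were all of members not called. Upper-quartile scaling turned Plvap in Ripk3-KO against WT to 0.012, and no factor turned Vwf in VilCre-Ripk3fl/fl against WT to -0.051. Leaving out each library gave, between the deletions, -0.045 to 0.14 for Kdr, -0.028 to 0.30 for Tek and -0.070 to 0.31 for Prox1 (-0.058 also below 0). Relative to the other endothelial genes it gave -0.041 to 0.076 for Flt1 (-0.019 also below 0, and -0.013 with the 5 most abundant reference genes) and -0.11 to 0.011 for Vwf in Ripk3-KO against WT, -0.044 to 0.025 for Plvap in VilCre-Ripk3fl/fl against WT (0.0053 also above 0), and between the deletions -0.23 to 0.11 for Tek (0.00093 also above 0) and -0.29 to 0.070 for Prox1 (0.0017 also above 0). The cause was not tested. Prox1 and Sox17 had 518 and 629 reads over all libraries, the fewest of the members, and an SE of 0.27 to 0.31 log2 in each comparison.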

Other observations

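Genes of the cells that wrap vessels and of the stroma around them were counted as well. Of 9 pericyte genes, 5 were higher and 0 lower in Ripk3-KO against WT, and 4 were higher and 1 lower in VilCre-Ripk3fl/fl (2 lower without a scaling factor). Rgs5, a regulator of G protein signalling typical of pericytes, averaged 91.3 CPM in WT, 246 in VilCre-Ripk3fl/fl (2.70-fold higher, edgeR adjusted p = 1.06e-17) and 328 in Ripk3-KO (3.59-fold higher, adjusted p = 3.25e-20). Cspg4, the NG2 proteoglycan gene, was 3.55-fold and 1.84-fold higher (adjusted p = 8.65e-13 and 1.09e-06). Abcc9, a potassium channel subunit gene, was 1.46-fold higher in Ripk3-KO (adjusted p = 0.000140) and 1.38-fold lower in VilCre-Ripk3fl/fl (adjusted p = 0.00128). All 10 smooth muscle genes were higher in both deletions, Myl9 by 3.13-fold and 2.74-fold (adjusted p = 4.13e-20 and 8.94e-19), and of 10 fibroblast genes 3 were higher in VilCre-Ripk3fl/fl (2 higher and 1 lower without a scaling factor) and 9 in Ripk3-KO. Of all genes 27.3% were higher and 28.1% lower in Ripk3-KO, and 27.2% and 28.4% with Villin-cre, against the same WT libraries.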
